A study of Sus scrofa with 6 samples.

Results

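Collagen chain genes encode the subunits that wind into the triple helices of the extracellular matrix. Fibrillar collagens, chiefly types I and III, form the tensile fibres of the sheaths around muscle fibres and fascicles, and type V collagen takes part in starting and limiting those fibrils. Type IV chains build the sheet-like network of basement membranes around muscle fibres and capillaries, and type VI collagen forms beaded filaments at the surface of muscle cells. Fibroblasts are the main source of fibrillar collagens in muscle, while endothelial and other cells also make type IV chains.

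The genes described here are all protein-coding genes whose Ensembl symbol has the form of a collagen chain, that is COL, a number, A and a number. Of 40 such symbols in the table of gene names, 38 had transcripts among the 25973 gene IDs with mRNA values, with 137 transcripts between them, while COL6A2 and COL24A1 were not analysed here. The 38 genes were 10 fibrillar chains, 6 type IV chains of the basement membrane and 22 other chains. A further 4 collagens, COL7A1, COL9A2, COL20A1 and COL26A1, had no symbol for their gene IDs in that table, and so were not counted as members.

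RNA came from the longissimus thoracis (LT), a muscle of the back, and the semitendinosus (ST), a muscle of the hind limb. Both muscles were taken from the same 3 pigs of the Min breed, a Chinese local breed, aged 210 days, which gave 6 libraries. All 6 are labelled wild type, and no treatment is named in the labels. Libraries were made from total RNA after removal of rRNA, so they hold the RNA of every cell type in the piece of muscle, and in such bulk samples fewer cells of a type and less RNA per cell cannot be told apart.

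The values are FPKM, which is fragments per kilobase of transcript, scaled to the mapped fragments of the library, summed here over the transcripts of each gene. Being scaled to the mapped fragments, they can be compared between libraries, within the limit that the makeup of the libraries differs. Being per length, they can be compared between genes only roughly. Of the parts into which COL4A1 is split (described below), the part with the symbol stood at 0.108 to 0.482 times the first part. Values are given throughout in the order pig 1, pig 2 and pig 3, with the number of the library taken as that of the pig. From the spacing of the lowest values, each library was worth 38800000 to 52200000 whole fragments, although 39.2% to 43.7% of the low values were whole multiples of that step (within 0.05), so this depth is approximate. Deposited transcripts held 87.5% to 89.8% of the mapped fragments. Mitochondrial transcripts took 2.55% to 3.77% of them in LT and 5.52% to 7.57% in ST.

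The libraries were those of skeletal muscle. ACTA1, the actin of the skeletal muscle thin filament, was at 2452, 3025 and 1811 FPKM in LT and at 2899, 1768 and 2415 FPKM in ST, and NEB, the giant protein nebulin, named like TNNT1 after its values were seen, lay between 842 and 997 FPKM in all 6. One library stood apart from its group. TNNT1, the slow troponin T, was at 348, 207 and 246 FPKM in LT and at 1746, 382 and 2079 FPKM in ST, so that ST of pig 2 lay near the LT libraries. TNNT3, the fast troponin T, was at 8127, 7992 and 5185 FPKM in LT and at 1046, 4519 and 161 FPKM in ST, where the same library was again the nearest to LT. Values without ST of pig 2 are therefore given beside the collagen chains with a mean of at least 1 FPKM whose log2 fold change moved by over 1.5 times or turned sign when it was left out.

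Of the 38 genes, 32 exceeded 0.1 FPKM in at least 1 library and entered the comparison of ST with LT, among 19672 genes in all. Of those 19672, 13994 were Ensembl-annotated and the rest unannotated, and shares of all genes given below cover both kinds. The 32 were 9 fibrillar, 5 basement membrane and 18 other chains. The 6 left out were COL2A1, COL4A4, COL9A1, COL10A1, COL17A1 and COL25A1, which lay between 0 and 0.0590 FPKM in every library. COL2A1 and COL10A1 are chains of cartilage collagens, and COL17A1 is a transmembrane collagen of skin. The 6 chondrocyte markers likewise summed to at most 0.520 FPKM in any library.

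The 5 chains with the highest means carried 76.7% of the summed FPKM of the collagen genes, and the first 10 carried 93.8%. COL3A1, the sole chain of type III collagen, had the highest mean over the 6 libraries at 434 FPKM, followed by COL1A2 at 116, COL4A2 at 63.0, COL6A3 at 56.2 and COL15A1 at 54.3 FPKM. The first part of COL4A1, not counted as a member, is left out of this order and of the shares below. Its mean was 73.4 FPKM in LT and 101 FPKM in ST. In all, 20 chains had a mean of at least 1 FPKM and 18 did not. Collagen chain genes took 0.670%, 0.560% and 0.340% of the mapped fragments of the LT libraries and 0.610%, 0.585% and 0.309% of those of ST. Mean shares were 0.523% ± 0.168 for LT and 0.501% ± 0.167 for ST (SD, n = 3 each), so the muscles overlapped, and in both of them pig 3 was the lowest. COL3A1 alone gave 34.4% to 50.98% of the collagen fragments of a library.

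**Figure D1:**
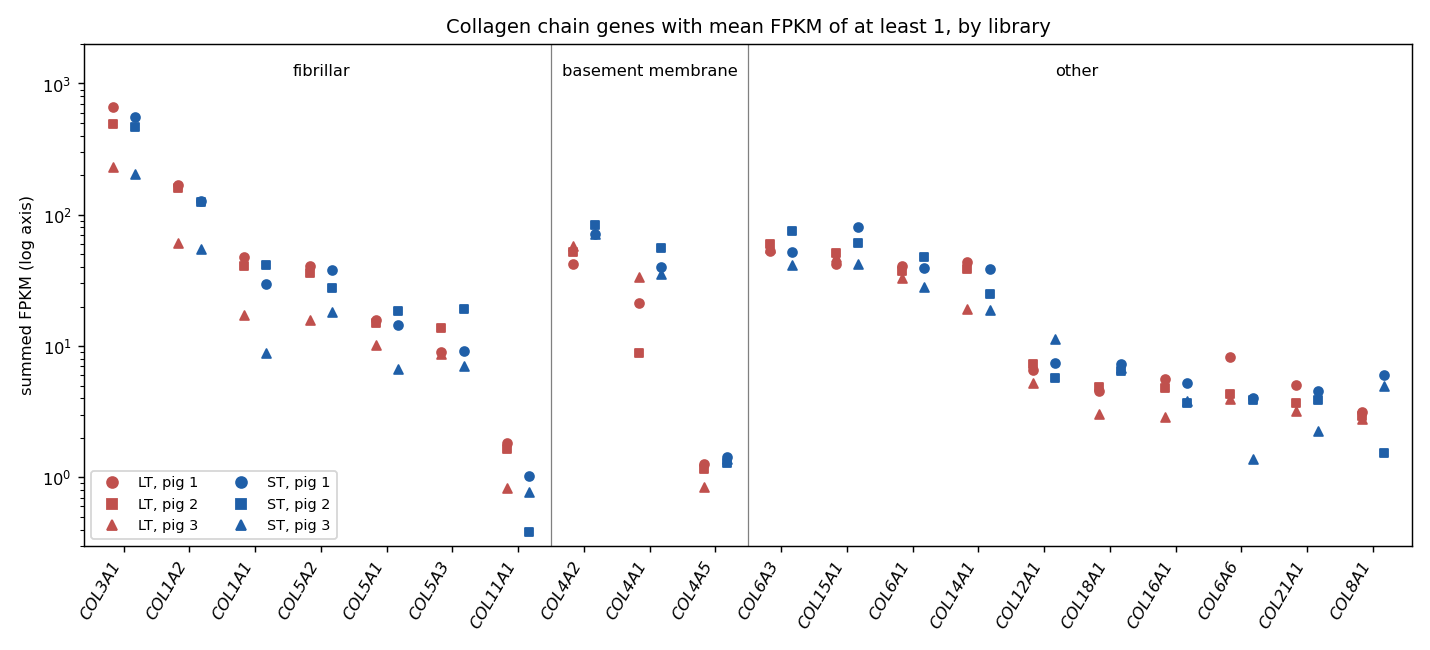
Summed FPKM (log axis) of the 20 collagen chain genes with a mean of at least 1 FPKM, by class, with 1 point per library, LT in red and ST in blue, and the shape of the point giving the pig. COL3A1 lies above every other chain in all 6 libraries, and the triangles of pig 3 lie lowest in both muscles for COL3A1, COL1A2, COL1A1 and COL5A2.

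The first question was whether any chain differed between the muscles. No collagen chain was called, 0 of 32, in limma, where a call required both a Benjamini-Hochberg adjusted p below 0.05 and a log2 fold change past 1 in either direction, and where 0.574% of all genes tested were called. With the pig as a block in the fit, 4.06% of all genes were called and again 0 of the 32 chains. The fit with limma-voom on estimated fragments also called 0, where it called 0.112% of all genes. At an unadjusted p under 0.05, 3 chains were higher in ST, where the background was 13% of all genes, and 0 were lower in ST, where it was 5.75%. The 3 were COL4A2 and COL4A1, 2 of 5 basement membrane chains, and COL18A1, 1 of 18 other chains. A count of 3 among 32 lies near or under the background, so it is no result about collagens as a whole. The groups did not overlap for 4 chains with ST above LT, where the background was 16.6%, and for 0 with ST below LT, where it was 8.08%. With the block, 7 of 32 chains had an unadjusted p under 0.05 in either direction, against 24.7% of all genes.

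Neither direction prevailed over the whole family. The median log2 fold change of ST against LT was -0.03 over the 32 chains, with 15 above 0 and 17 below, while the median over all genes tested was 0.13, with 61.3% of them above 0. By class, the median was -0.14 for the 9 fibrillar chains, 0.32 for the 5 basement membrane chains and -0.00 for the 18 others. Within each class single chains ranged widely, from -0.90 to 0.45 for fibrillar, from -0.27 to 1.22 for basement membrane and from -0.92 to 0.98 for other chains. All of these fold changes are on the scale of log2(FPKM + 0.1), which understates the change of genes with low values.

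**Figure D2:**
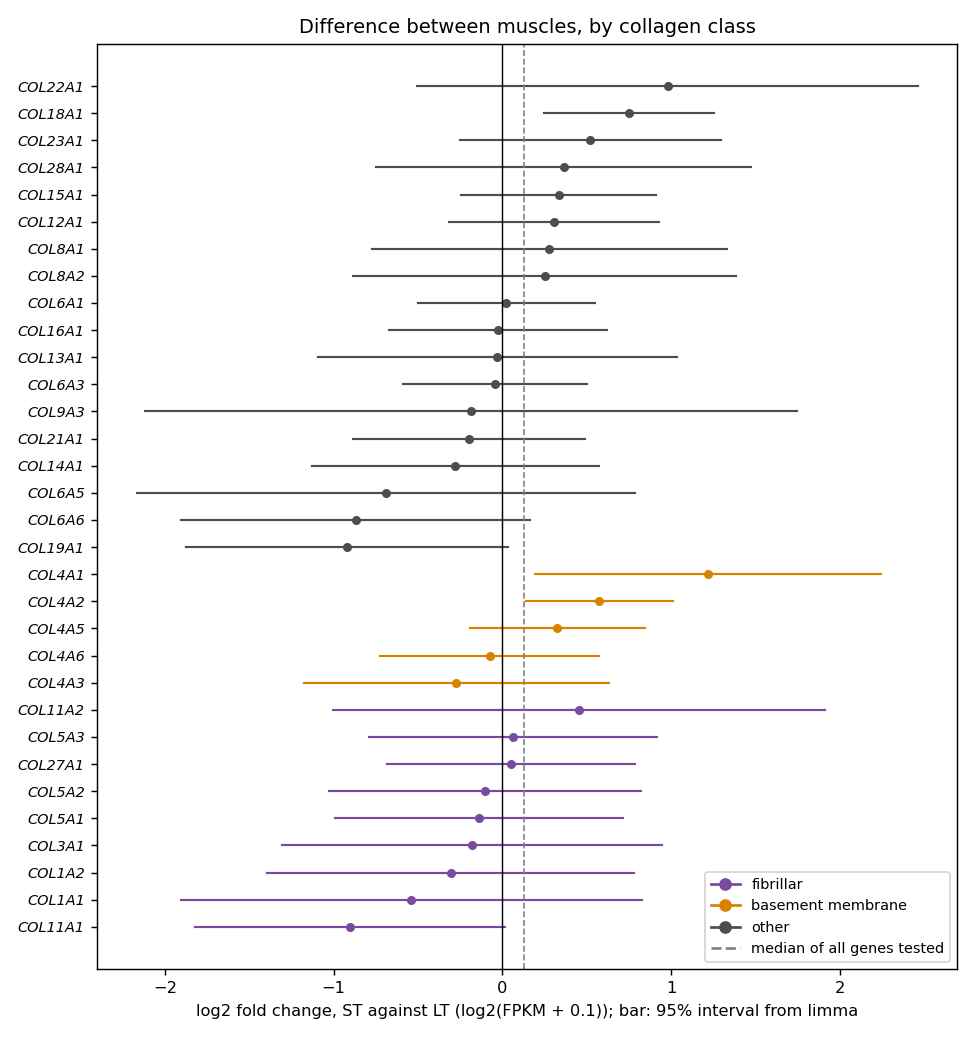
Log2 fold change of ST against LT, on log2(FPKM + 0.1), for the 32 collagen chain genes compared, with 95% intervals from limma, coloured by class. The dashed line is the median of all genes tested, 0.13, and the intervals of COL18A1, COL4A1 and COL4A2 lie above 0.

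Fibrillar chains overlapped between the muscles, and the abundant ones were lowest in pig 3. COL3A1 was at 662, 491 and 232 FPKM in LT and at 551, 463 and 203 FPKM in ST. The ranges of the muscles overlapped almost fully, and the log2 fold change of -0.18 ± 0.49 (SE) had an adjusted p of 0.881 in limma. COL1A2, the α2 chain of type I collagen, was at 169.9, 159.7 and 61.2 FPKM in LT and at 128, 126 and 54.4 FPKM in ST, with a log2 fold change of -0.31 ± 0.47 (SE) and a limma adjusted p of 0.771. COL1A1, the α1 chain of the same molecule, was at 48.0, 40.4 and 17.2 FPKM in LT and at 29.7, 41.4 and 8.80 FPKM in ST. It was lower in ST in pigs 1 and 3 and about equal in pig 2, and its log2 fold change was -0.54, with a limma adjusted p of 0.668. The 95% interval ran from -1.91 to 0.83 without the pig in the fit and from -1.06 to -0.0185 with the pig block, where the unadjusted p was 0.0443 and the adjusted p 0.191. COL3A1, COL1A2 and COL11A1 were lower in ST in all 3 pigs, 3 of 9 fibrillar chains, against 15.6% of all genes. Without ST of pig 2 the log2 fold change was -0.33 for COL3A1, -0.51 for COL1A2 and -0.99 for COL1A1, and the median of the fibrillar chains was -0.35 in place of -0.14. Without ST of pig 3 all of these turned, to 0.26, 0.0985 and 0.12 for the chains and to 0.18 for the median.

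Type V chains were also lowest in pig 3 in both muscles. COL5A2 was at 40.8, 35.9 and 15.9 FPKM in LT and at 38.0, 27.5 and 18.0 FPKM in ST, and COL5A1 at 15.9, 14.9 and 10.2 FPKM in LT and at 14.4, 18.5 and 6.71 FPKM in ST. COL5A3, a further type V chain, was at 9.03, 13.6 and 8.72 FPKM in LT and at 9.12, 19.2 and 6.99 FPKM in ST. The muscles overlapped for each of them, with log2 fold changes of -0.10, -0.14 and 0.06 and limma adjusted p-values of 0.919, 0.876 and 0.944. Without ST of pig 2 they were -0.13, -0.44 and -0.35, so that COL5A3 turned, and without ST of pig 3 they were 0.18, 0.28 and 0.37, so that COL5A2 and COL5A1 turned. COL5A2 runs on the opposite strand to COL3A1 and overlaps its 3′ end on chromosome 15, COL3A1 at 93556912 to 93615815 and COL5A2 at 93611856 to 93981110 (Sscrofa11.1). The library kit keeps the strand, but whether the counting used it is not given in the sources used here, so reads in the shared stretch may belong to either gene.

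COL11A1, a minor fibrillar chain found with types II and V, was the fibrillar chain with the lowest value in ST relative to LT. It was at 1.81, 1.65 and 0.829 FPKM in LT and at 1.0305, 0.386 and 0.766 FPKM in ST. Values were lower in ST in all 3 pigs, but LT of pig 3 fell inside the range of ST, and the log2 fold change of -0.90 ± 0.40 (SE) had an adjusted p of 0.273 in limma and of 0.171 with the pig block. Without ST of pig 2 the log2 fold change was -0.56. COL27A1 and COL11A2 stayed under 0.567 FPKM in all libraries. COL11A2 was at 0.359, 0.0123 and 0.566 FPKM in ST, and its log2 fold change of 0.45 was 1.22 without ST of pig 2.

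The chains of type I collagen differed in level. COL1A2 to COL1A1 was 3.54, 3.95 and 3.55 in the LT libraries and 4.301, 3.04 and 6.18 in those of ST, although the α1 chain is used more often than the α2 chain in the type I molecule. COL3A1 to COL1A2 was 3.90, 3.07 and 3.79 in the LT libraries and 4.32, 3.68 and 3.74 in those of ST. Of 9 ratios between chains, all overlapped between the muscles. Their 2-sided exact permutation p-values ran from 0.3 to 0.7 (0.675 to 0.7 after Benjamini-Hochberg adjustment over the 9), where 0.1 is the smallest p that 3 against 3 libraries allow. That test leaves out the pig. Within pigs, 3 of the 9 ratios were higher in ST in all 3 animals and 0 were lower in all 3, and a 2-sided exact paired test of 3 pigs cannot go below 0.25. The 3 were COL5A1 to COL1A1, COL4A1 to COL1A2 and COL4A2 to COL3A1, the last at 0.0641, 0.107 and 0.248 in the LT libraries and 0.129, 0.180 and 0.352 in those of ST.

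Pig 3 had the lowest fibrillar collagen values in both muscles, a pattern noticed in the data and described after its values were seen. Relative to the mean of pigs 1 and 2, its values were 0.402 times as high in LT and 0.401 times in ST for COL3A1, 0.371 and 0.429 times for COL1A2, 0.390 and 0.248 times for COL1A1, and 0.414 and 0.551 times for COL5A2. Of the 9 fibrillar chains tested, 7 were lowest in pig 3 in both muscles, against 10.8% of all genes, as were 1 of 5 basement membrane chains and 5 of 18 others. Pig 3 was picked because these chains were seen to be low in it, so that share is not a fair background. Counting any pig that was lowest in both muscles gives 8 of 9 fibrillar, 2 of 5 basement membrane and 7 of 18 other chains, against 46.2% of all genes. The fibrillar share of mapped fragments was 0.504%, 0.394% and 0.190% in the LT libraries and 0.416%, 0.382% and 0.163% in those of ST. COL4A2 did not follow this order, at 1.21 times the mean of the other pigs in LT and 0.926 times in ST.

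An F test of the pig term, in the limma fit with muscle and pig over all genes, had an unadjusted p under 0.05 for 7 of 9 fibrillar, 0 of 5 basement membrane and 6 of 18 other chains, where the background was 13.8%. These were partly other genes than those lowest in pig 3. Both held for 6 of 9 fibrillar and 3 of 18 other chains (3.37% of all genes). That share is not a fair background either, since pig 3 was picked for its low values in these chains. COL11A2 was lowest in pig 2 and COL19A1 in pig 1 in both muscles. The F test used the same values in which the pattern was noticed, so it is no separate support for it. After adjustment over all genes, 0 of 32 chains passed, where 0.178% of all genes did. COL1A2 had the smallest adjusted p of the members, 0.0922 (unadjusted p of 0.000538), and COL3A1 had 0.129. The low values of pig 3 rest on 1 animal, sampled once per muscle. In the fit without pig 3, 0 of the chains were called between the muscles, but only 0.00517% of all genes were.

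**Figure D3:**
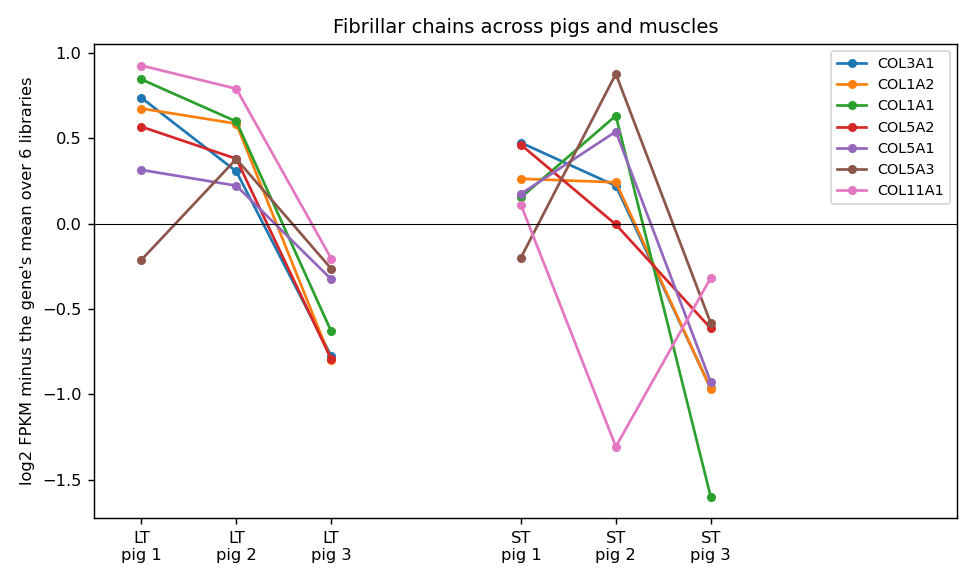
Log2 FPKM of 7 fibrillar chains in each library, minus the mean of the gene over the 6 libraries, for LT (left) and ST (right), with lines joining the pigs of 1 muscle. COL3A1, COL1A2, COL1A1, COL5A2, COL5A1 and COL5A3 are lowest in pig 3 in both muscles, while COL11A1 in ST is lowest in pig 2.

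Of the basement membrane chains, the 3 with the highest means lay higher in every ST library than in any LT library, although none passed the test. COL4A2, the α2 chain of type IV collagen, was at 42.4, 52.5 and 57.5 FPKM in LT and at 71.0, 83.4 and 71.5 FPKM in ST. Each ST library exceeded each LT library, by 1.48 times on average, but the log2 fold change of 0.57 ± 0.19 (SE, unadjusted p of 0.0157) did not pass, with a limma adjusted p of 0.163 and of 0.0991 with the pig block. COL4A5, the α5 chain, was at 1.25, 1.16 and 0.845 FPKM in LT and at 1.43, 1.29 and 1.39 FPKM in ST, again without overlap, with a log2 fold change of 0.32 and an adjusted p of 0.477. These 3 of 5 chains without overlap stand beside 0 of 9 fibrillar and 1 of 18 other chains, and beside 16.6% of all genes.

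COL4A1, the partner of COL4A2 in the commonest type IV molecule, is split in the annotation behind the files. The gene ID that bears its symbol covers chromosome 11 from 76858296 to 76888850 (Sscrofa11.1) in 12 exons. A gene ID with no symbol, ENSSSCG00000044051, lies 6053 bp further on at 76894904 to 76997414 in 24 exons on the same strand. Apart from a few bases at the outer ends, both lie within the RefSeq gene COL4A1 of that build, 76858332 to 76997409, so the ID with no symbol is called here the first part of the gene, since COL4A1 is read from the minus strand. It ends 101 bp before COL4A2, which runs the other way at 76997516 to 77161615, the head-to-head arrangement known for this gene pair.

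Both parts of COL4A1 were higher in ST in every library, although neither passed the test. The part with the symbol was at 21.2, 8.79 and 33.3 FPKM in LT and at 40.1, 55.8 and 35.3 FPKM in ST. The first part was at 59.5, 81.7 and 78.9 FPKM in LT and at 83.3, 122 and 99.2 FPKM in ST. Groups did not overlap in either case, but the margins were narrow. In the part with the symbol LT of pig 3 came close to the lowest ST library. In the first part LT of pig 2 did so, at 81.7 FPKM against 83.3 FPKM in ST of pig 1. The log2 fold change was 1.22 ± 0.44 (SE) for the part with the symbol, with an adjusted p of 0.196 in limma, and 0.46 ± 0.22 (SE) for the first part, with an adjusted p of 0.304.

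One LT library set most of the gap between the parts. The part with the symbol was at 0.357, 0.108 and 0.422 times the level of the first part in LT and at 0.482, 0.458 and 0.356 times in ST, so it was lowest in LT of pig 2. Without that library its log2 fold change was 0.69, and the range over the libraries left out was 0.69 to 1.64. COL4A2 kept a steadier ratio to the first part of COL4A1, from 0.643 to 0.853 over the 6 libraries. COL4A6 and COL4A3 stayed under 0.248 FPKM and had log2 fold changes of -0.07 and -0.27. Basement membrane chains together took 0.0274%, 0.0269% and 0.0377% of mapped fragments in LT and 0.0455%, 0.0541% and 0.0442% in ST. That is 1.56 times as much on average without overlap. These shares leave out the first part of COL4A1, whose mean in ST was 1.38 times that in LT.

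**Figure D4:**
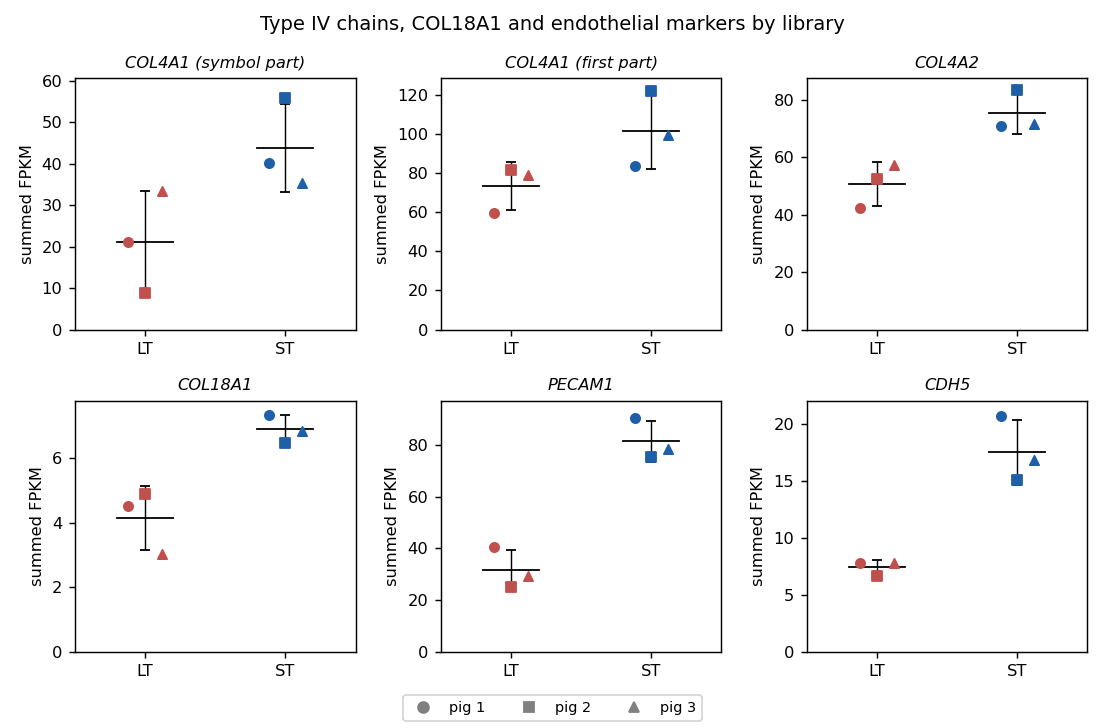
Summed FPKM in each library for both parts of COL4A1, COL4A2, COL18A1 and the endothelial markers PECAM1 and CDH5, LT in red and ST in blue, with bars at the mean and SD of 3 pigs. In each of the 6 panels every ST library lies above every LT library.

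Among the other chains, the pair of collagens that carry an endostatin fragment at their ends included the chain with the smallest adjusted p of all members. COL18A1, a basement membrane proteoglycan core, was at 4.51, 4.89 and 3.02 FPKM in LT and at 7.35, 6.46 and 6.85 FPKM in ST. The groups did not overlap, and the log2 fold change of 0.75 ± 0.22 (SE) had a limma adjusted p of 0.131, and of 0.0769 with the pig block. COL15A1, which links basement membranes to the fibres beside them, was at 42.4, 51.4 and 47.7 FPKM in LT and at 80.5, 61.2 and 42.3 FPKM in ST. Here the muscles overlapped, since ST of pig 3 was the lowest of all 6 libraries, and the log2 fold change was 0.33 with an adjusted p of 0.517.

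Type VI chains, the beaded filaments of the muscle cell surface, had closely similar means in both muscles for the abundant chains. COL6A3 was at 52.6, 59.9 and 56.1 FPKM in LT and at 51.7, 75.2 and 41.5 FPKM in ST. COL6A1 was at 40.7, 37.2 and 32.9 FPKM in LT and at 39.6, 47.3 and 27.9 FPKM in ST. All LT libraries lay inside the range of ST for both chains, with log2 fold changes of -0.04 (95% interval from -0.59 to 0.50) and 0.02 (from -0.50 to 0.55). Without ST of pig 2 they were -0.28 and -0.15, so that COL6A1 turned, and without ST of pig 3 they were 0.15 and 0.23, so that COL6A3 turned.

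COL6A6, a rarer type VI chain, was lower in ST in all 3 pigs. It was at 8.30, 4.33 and 3.93 FPKM in LT and at 4.05, 3.91 and 1.37 FPKM in ST. The muscles overlapped by a narrow margin, with a log2 fold change of -0.87 ± 0.45 (SE) and a limma adjusted p of 0.340, and of 0.107 with the pig block. Its neighbour COL6A5, 44142 bp away on chromosome 13, did not exceed 0.695 FPKM.

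Fibril-associated chains decorate the surface of the fibrils. COL14A1, the most abundant of them, was at 43.6, 38.8 and 19.0 FPKM in LT and at 38.5, 24.9 and 18.7 FPKM in ST, with a log2 fold change of -0.28 and an adjusted p of 0.730, and pig 3 was again the lowest in both muscles. COL12A1 was at 6.59, 7.32 and 5.26 FPKM in LT and at 7.38, 5.75 and 11.4 FPKM in ST. COL16A1 was at 5.64, 4.81 and 2.88 FPKM in LT and at 5.23, 3.71 and 3.81 FPKM in ST. For both, the muscles overlapped, with log2 fold changes of 0.31 and -0.03, and of 0.53 and 0.0606 without ST of pig 2. For COL12A1 the value was 0.0403 without ST of pig 3.

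COL21A1, another chain of this group, was at 5.08, 3.71 and 3.18 FPKM in LT and at 4.53, 3.85 and 2.24 FPKM in ST, with a log2 fold change of -0.20. COL8A1, a short-chain collagen of vessel walls, was at 3.17, 2.91 and 2.79 FPKM in LT and at 6.04, 1.52 and 4.97 FPKM in ST. LT was narrow and ST was wide, because ST of pig 2 lay below every LT library while the other ST libraries lay above. Its log2 fold change was 0.28 with an adjusted p of 0.789 over all libraries, and 0.87 with an adjusted p of 0.0490 without ST of pig 2, still under the fold required for a call.

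The 18 chains with a mean under 1 FPKM lay between 0 and 0.906 FPKM. The 12 of them that entered the fit had log2 fold changes from -0.92 for COL19A1 to 0.98 for COL22A1 and limma adjusted p-values from 0.280 to 0.979. COL19A1, a fibril-associated chain, was lower in ST in each pig, at 0.183, 0.565 and 0.568 FPKM in LT and at 0.0942, 0.187 and 0.232 FPKM in ST. COL22A1, a chain known from the junction of muscle and tendon, reached 0.658 FPKM in ST of pig 3 and did not exceed 0.0701 FPKM in any other library. COMP, an oligomeric matrix protein of tendon and cartilage named after its values were seen, showed the same library standing out, at 7.21 FPKM in ST of pig 3 and 0.188 FPKM or less elsewhere, and the 7 tendon cell markers summed to 33.4, 37.6 and 38.4 FPKM in LT and to 66.8, 30.5 and 113 FPKM in ST. Whether tissue near a tendon had a part in these values was not tested.

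**Figure D5:**
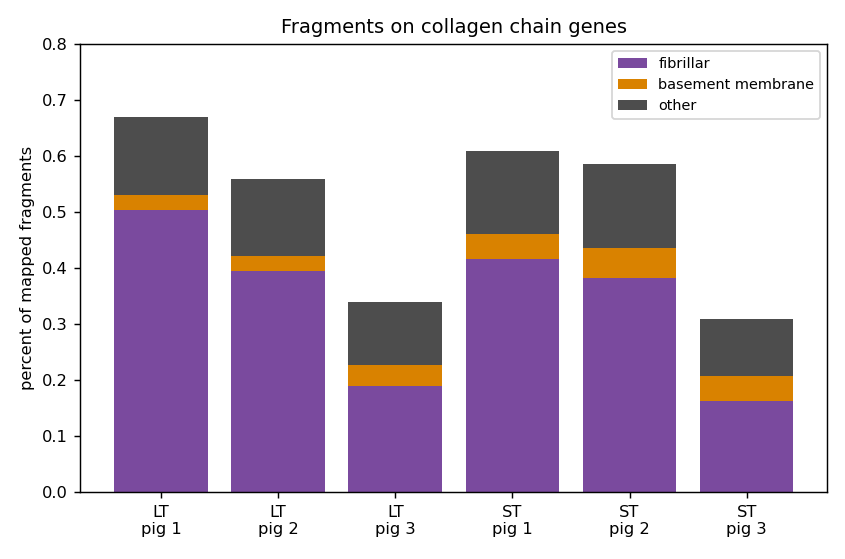
Percent of mapped fragments on collagen chain genes in each library, stacked by class, without the first part of COL4A1. Fibrillar chains make up most of every bar, bars of pig 3 are the lowest in both muscles (0.340% in LT and 0.309% in ST), and the basement membrane band is wider in each ST library than in any LT library.

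Collagen genes share an unusual build, which was not used to choose them. The 32 chains compared had a median of 52 exons in their transcript with the most exons, from 4 to 83, against 9 over all genes tested. Their longest transcripts had a median of 6331 bases, against 3390.5. Several lie in pairs, among them COL4A6 and COL4A5, 1422 bp apart on chromosome X, and COL19A1 and COL9A1, 3388 bp apart on chromosome 1. Sums over a gene were used because the split between transcripts was unsteady for some genes. The share of the transcript with the highest mean varied by over 20 percentage points between libraries in 10 of the 20 chains with a mean of at least 1 FPKM. It ran from 0% to 89.6% for COL3A1 and from 0% to 79.0% for COL6A1, but from 99.8% to 100% for COL1A1 and from 70.8% to 79.5% for COL6A3.

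The machinery that makes collagen was compared next, by lists of genes chosen with earlier results known. Of 23 genes of collagen synthesis and crosslinking that were tested, 0 were called, and 3 were higher and 1 lower in ST at an unadjusted p under 0.05. Over all genes, 0.574% were called, and 13% were higher and 5.75% lower at that p, so these counts lie near the background. P4HB, a subunit of prolyl 4-hydroxylase, was the most abundant, at 89.1, 75.3 and 125 FPKM in LT and at 88.6, 72.8 and 116 FPKM in ST. SERPINH1, the collagen chaperone HSP47, was at 70.1, 86.6 and 32.5 FPKM in LT and at 65.8, 85.0 and 51.1 FPKM in ST, lowest in pig 3 in both muscles. The list had a median log2 fold change of 0.17, beside 0.13 for all genes.

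Procollagen processing had 7 genes tested of 10, of which 0 were called and 1 was higher in ST at an unadjusted p under 0.05 (13% of all genes). PCOLCE, an enhancer of the removal of the C-terminal propeptide, was at 49.0, 36.6 and 20.1 FPKM in LT and at 48.3, 33.0 and 19.0 FPKM in ST. Both muscles thus ran through the pigs in the same order, as for COL3A1, and the log2 fold change was -0.09. PCOLCE2, a related enhancer, was at 12.5, 15.8 and 18.3 FPKM in LT and at 11.8, 11.12 and 19.3 FPKM in ST, highest in pig 3 in both.

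Collagen breakdown, with 11 genes tested, had 0 calls (0.574% of all genes) and 2 genes higher in ST at an unadjusted p under 0.05 (13% of all genes). TIMP3, an inhibitor of metalloproteinases held in the matrix, was at 47.5, 63.1 and 62.4 FPKM in LT and at 71.2, 94.8 and 93.6 FPKM in ST, and TIMP2 at 25.8, 24.4 and 31.1 FPKM in LT and at 31.8, 25.9 and 28.4 FPKM in ST. TIMP3 did not overlap between the muscles, with a log2 fold change of 0.59 and a limma adjusted p of 0.185. Of 19 genes of the matrix that binds collagen, 0 were called, and 16 had a log2 fold change above 0 (61.3% of all genes), with a median of 0.46, beside 0.13 for all genes. At an unadjusted p under 0.05, 1 was higher in ST (13% of all genes). FMOD, KERA, COMP and THBS4 of this list are also among the tendon cell markers. Those markers summed to 33.4, 37.6 and 38.4 FPKM in LT and to 66.8, 30.5 and 113 FPKM in ST. Their part in the median of the list was not tested. DCN, the proteoglycan decorin, was at 397, 329 and 284 FPKM in LT and at 445, 263 and 343 FPKM in ST, and SPARC at 231, 234 and 140.3 FPKM in LT and at 290.3, 256 and 189 FPKM in ST.

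Basement membranes also hold laminins, nidogens and proteoglycans. Of 16 such genes tested, 0 were called, 1 was higher in ST at an unadjusted p under 0.05 (13% of all genes), and the median log2 fold change was 0.12, beside 0.13 for all genes. LAMC1, the γ1 chain of most laminins, was at 30.9, 36.0 and 54.4 FPKM in LT and at 35.0, 48.6 and 44.5 FPKM in ST. DAG1, the laminin receptor dystroglycan, was at 36.4, 39.7 and 41.0 FPKM in LT and at 32.0, 35.7 and 37.6 FPKM in ST. The difference between these genes and the type IV chains was not tested.

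Collagen receptors numbered 11, of which 0 were called (0.574% of all genes) and 4 were higher in ST at an unadjusted p under 0.05 (13% of all genes). ITGB1, the β1 integrin subunit, was at 42.8, 21.2 and 50.1 FPKM in LT and at 64.0, 29.6 and 31.7 FPKM in ST, and ANTXR2 at 17.8, 18.9 and 17.4 FPKM in LT and at 25.0, 23.6 and 25.3 FPKM in ST. ITGA1, the α subunit of an integrin that binds type IV collagen, was named after its values were seen. It was at 8.84, 8.02 and 8.85 FPKM in LT and at 19.5, 14.4 and 17.8 FPKM in ST, without overlap. Its log2 fold change of 0.99 fell just short of the fold required, with a limma adjusted p of 0.0593 and of 0.0284 with the pig block.

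Regulators of collagen genes, 15 in number, had 0 calls, with 5 higher and 1 lower in ST at an unadjusted p under 0.05, where 13% and 5.75% of all genes were. The median log2 fold change was 0.56, beside 0.13 for all genes. SMAD4, the shared mediator of TGF-β signals, was at 31.4, 28.5 and 36.3 FPKM in LT and at 24.2, 16.8 and 24.2 FPKM in ST. CCN2, a matricellular growth factor, was at 21.9, 34.6 and 11.005 FPKM in LT and at 33.6, 29.5 and 30.1 FPKM in ST. SMAD4 was lower in each ST library than in any LT library, while CCN2 overlapped, with limma adjusted p-values of 0.192 and 0.417.

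With the pig as a block, 5 of the 102 genes tested in these 7 lists were called, which is 4.90% and near the 4.06% of all genes. They are named after their values were seen, and all were higher in ST. They were TGM2, a crosslinking transglutaminase (log2 fold change of 1.13, adjusted p of 0.0283 in limma with the block), BMP1, the protease that removes the C-terminal propeptide (1.16, 0.0284), and TIMP4, a metalloproteinase inhibitor (1.10, 0.0335). The others were TNC, the matrix glycoprotein tenascin C (1.19, 0.0362), and SMAD7, an inhibitor of TGF-β signalling (1.25, 0.0323). Without the block their adjusted p-values lay between 0.0684 and 0.170. BMP1, for instance, was at 1.54, 1.55 and 2.52 FPKM in LT and at 3.74, 3.98 and 4.92 FPKM in ST, without overlap.

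Markers of other cell types gave the makeup of the samples beside these results. Endothelial markers were higher in ST, with 3 of 6 tested genes called in limma (0.574% of all genes), PECAM1 (log2 fold change of 1.39, adjusted p of 0.0438), CDH5 (1.22, 0.0408) and ESAM (1.13, 0.0402), and all 6 above 0 (61.3% of all genes). With the pig block 4 were called (4.06% of all genes). These calls were lost in most of the 17 other settings, in 10 for PECAM1, 10 for CDH5 and 9 for ESAM. Limma adjusted p-values reached 0.283 for PECAM1, 0.274 for CDH5 and 0.278 for ESAM, each in the fit without pig 3. The log2 fold changes stayed above 1 in every setting. The 6 markers summed to 89.1, 60.7 and 70.9 FPKM in the LT libraries and to 201, 141 and 163 FPKM in those of ST, 2.29 times as high, with PECAM1 the most abundant and none of the 6 at 0. COL4A2 stood to this sum as 0.476, 0.865 and 0.810 in LT and as 0.353, 0.590 and 0.438 in ST. Mean values of ST over LT were 1.48 for COL4A2, 2.07 for the symbol-bearing part of COL4A1, 1.38 for its first part and 1.66 for COL18A1, beside the 2.29 of the endothelial sum, and the part of the endothelial cells in the values of these chains was not tested.

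Mural cell markers, for pericytes and smooth muscle, summed to 189.9, 165 and 165 FPKM in LT and to 328, 253 and 325 FPKM in ST, led by RGS5, with 0 of 7 called in limma (0.574% of all genes) and 1, RGS5, called with the block (4.06% of all genes). The 8 fibroblast markers, which share DCN and LUM with the binding matrix list, summed to 648, 537 and 456 FPKM in LT and to 750, 467 and 605 FPKM in ST, and 0 were called. THY1, a surface protein of fibroblasts matched here by its RefSeq position, was at 80.3, 49.8 and 22.7 FPKM in LT and at 66.7, 36.6 and 23.1 FPKM in ST. It ran through the pigs in the order of COL3A1, but the list did not do so as a whole, since 2 of the 8 markers were lowest in pig 3 in both muscles and 4 were highest in pig 3 among the ST libraries. The part of fibroblasts in the values of the fibrillar chains was not tested.

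Of 6 adipocyte markers, LPL, lipoprotein lipase, which muscle also makes, was the most abundant. It was called higher in ST (log2 fold change of 1.41, limma adjusted p of 0.0259). The call of LPL was lost in 9 of the 17 other settings, with a limma adjusted p of at most 0.252. Its log2 fold change was at least 1.29 in each of them. ADIPOQ, adiponectin, was at 34.8, 25.1 and 73.6 FPKM in LT and at 51.4, 14.6 and 12.6 FPKM in ST. The adipocyte markers summed to 177, 139 and 243 FPKM in LT and to 317, 229.6 and 234 FPKM in ST, a sum carried by LPL. The other 5 markers all had log2 fold changes below 0, the median of the 6 was -0.82, and without LPL the sums were 115, 65.2 and 180.1 FPKM in LT against 148, 57.0 and 47.3 FPKM in ST. No Schwann cell, macrophage, satellite cell, tendon or chondrocyte marker was called in limma, with or without the pig block. Their summed means in LT and ST were 28.2 and 31.5 FPKM for Schwann cells, 35.6 and 49.0 FPKM for macrophages, and 32.0 and 24.1 FPKM for satellite cells. Over all settings, the lowest limma adjusted p of the tendon markers was 0.0245 for TNMD, 0.0243 for KERA, 0.0374 for SCX and 0.0449 for THBS4. It stayed above 0.05 for FMOD (0.0535), MKX (0.0778) and COMP (0.111). Each of these is the smallest of many fits, which favours low values. With all libraries and no block, the limma adjusted p was 0.612 for KERA and 0.369 for THBS4. Over all settings it reached 0.976 for KERA and 0.713 for THBS4.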

How the data were processed

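Total RNA of LT and ST from 3 Min pigs was depleted of rRNA and sequenced with a directional kit. The authors filtered reads with SOAPnuke, mapped them with HISAT2 to Sus scrofa 11.1, assembled them into transcripts with StringTie, and gave FPKM for every transcript in the deposited tables, beside its exon number and length. FPKM was summed per gene ID. Genes above 0.1 FPKM in at least 1 library were tested in limma 3.58.1 (R 4.3.3) with a variance trend, using log2(FPKM + 0.1) as the response, with p-values adjusted by Benjamini-Hochberg over all 19672 genes. Calls were genes with an adjusted p below 0.05 whose log2 fold change was past 1 in either direction. Other values came from Python 3.11.15 with pandas 2.3.3, numpy 2.4.6 and scipy 1.17.1, and plots from matplotlib 3.10.9. Shares of mapped fragments were computed as FPKM times length.

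Libraries of 1 number were taken to come from 1 pig. The study states that both muscles were sampled from the same animals, but its text does not match library numbers to pigs. Residuals of same-numbered libraries correlated at 0.29, 0.26 and 0.29, against a mean of -0.14 between numbers. Each gene was centred on its mean in each muscle, which ties that -0.14 to the other 3 values, so it is no separate comparison. The study names no block, so the pig was a block only as an alternative. In simulated data of 19672 genes, 100 were changed by 2 and 100 by 4 on the log2 scale. The changed genes were drawn from those with a positive mean of log2(FPKM + 0.1). The fit without a block recovered 72 and 96 with 12 other calls, and the fit with it 53 and 87 with 6. Simulated noise was independent between libraries and held no pig effect, so the simulation cannot show what the block does in paired libraries.

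Collagens with a mean of at least 1 FPKM were given in every library. Of the other lists, the 2 members with the highest means and up to 3 called members were named, and genes named beyond this rule are marked as such. The members and lists were chosen with earlier results of these data known. Alternatives were other pseudocounts, other filters, annotated transcripts alone, rescaling to nuclear transcripts, quantile normalization, no variance trend, the pig block and leaving out each library. The fits without pig 3, limma-voom on estimated fragments and the F test of the pig term were added after the data were seen. FPKM could not be turned back into whole counts, so count models were not the main test.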

Additional observations from a re-analysis of the deposited data

How the results depend on the processing

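In all 17 other settings, 0 collagen chains were called. The number of genes called moved from 113 to 6 without a filter on FPKM, 61 with quantile normalization, 29 without a variance trend, 22 with limma-voom and 1 without pig 3, and ran from 12 to 991 as each library was left out, 991 being without ST of pig 2. With the pig block (the replicate block), 799 genes were called, and it changed the call of no collagen chain. The median log2 fold change of the fibrillar chains was -0.0844 after rescaling to nuclear transcripts and -0.26 with quantile normalization, and lay between -0.52 and 0.18 as each library was left out. That of the basement membrane chains stayed above 0, at 0.19 with a pseudocount of 1, 0.17 without a filter, 0.57 with FPKM above 1, 0.38 after rescaling, 0.16 with quantile normalization, 0.27 with limma-voom, 0.16 without pig 3 and 0.17 to 0.49 as each library was left out, and that of the other chains lay between -0.0563 and 0.16 over all settings. The median of all genes was -0.01 with quantile normalization and 0.18 after rescaling.

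Of the 20 chains given in every library, 8 kept their direction in every setting (COL4A1, COL4A2, COL4A5, COL11A1, COL14A1, COL15A1, COL18A1 and COL6A6) and 12 turned in at least 1. As each library was left out, those 8 ran from 0.69 to 1.64, 0.45 to 0.67, 0.17 to 0.43, -1.23 to -0.56, -0.65 to -0.0373, 0.11 to 0.58, 0.54 to 0.88 and -1.13 to -0.38, in that order. The sign turned after rescaling for COL6A3 (0.0119) and COL16A1 (0.0280), with quantile normalization for COL5A3 (-0.0765) and COL6A1 (-0.0155), with limma-voom for COL6A1 (-0.0135), and without pig 3 for COL5A1 (0.0877), COL6A3 (0.15) and COL12A1 (-0.0916). As each library was left out, log2 fold changes ran from -0.61 to 0.26 for COL3A1, -0.78 to 0.10 for COL1A2, -0.99 to 0.12 for COL1A1, -0.52 to 0.18 for COL5A2, -0.44 to 0.28 for COL5A1, -0.35 to 0.37 for COL5A3, -0.15 to 0.23 for COL6A1, -0.28 to 0.15 for COL6A3, -0.30 to 0.17 for COL16A1, -0.40 to 0.0906 for COL21A1, 0.0403 to 0.53 for COL12A1 and -0.0883 to 0.87 for COL8A1. The cause of these turns was not tested. Fragment numbers are estimates, and chains under 1 FPKM rested on at most 190.5 estimated fragments in a library.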

Other observations

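Unannotated mRNA transcripts on the opposite strand mirrored 8 collagen genes, covering at least 80% of each gene with nearly the same number of exons. The mirror of COL4A2 had 48 exons, as did the annotated transcript, and stood at 9.96% to 13.3% of the FPKM of the gene. That of COL1A2 had 51 exons against 53 and stood at 4.18% to 5.01%, and that of COL1A1 had 51 exons against 52 and stood at 7.96% to 11.6%. Those of COL18A1, 3 transcripts together, stood highest, at 12.4% to 34.2%. The others were COL6A3, COL5A3, COL16A1 and COL8A1, at 3.24% to 12.1%. Some unannotated mRNA transcripts on the opposite strand covered less than 80% of a gene and were not counted. The one over COL3A1 had 51 exons and a mean of 20.9 FPKM. COL5A1, COL15A1 and COL14A1 had such transcripts with up to 46, 42 and 48 exons. These transcripts entered the sum of no collagen gene. They were summed under unannotated gene IDs of their own, which stand among all genes tested where they passed the filter. Their source was not tested.

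Collagens known only by RefSeq position were low. COL7A1, the anchoring fibril chain, was at 0.553, 0.669 and 0.417 FPKM in LT and at 0.515, 0.553 and 0.513 FPKM in ST. COL20A1 and COL9A2 stayed under 0.265 FPKM, and COL26A1 reached 0.257 FPKM in ST of pig 3 and did not exceed 0.0214 FPKM in the other libraries.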
